A study of Homo sapiens with 10 samples.

Results

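The interferon regulatory factors (IRFs) are transcription factors that share an N-terminal DNA-binding domain, and the 7 studied here were IRF1, IRF2, IRF3, IRF5, IRF7, IRF8 and IRF9, that is, listed family members other than IRF4. They were found by gene symbol, which gave 10 probes of the 48107 on the array: 3 for IRF7, 2 for IRF2 and 1 for each of the others. OCI-LY10, a human cell line of diffuse large B-cell lymphoma of the activated B-cell type, had received 1 micromolar CC-122 (5 arrays) or the vehicle DMSO (5 arrays) for 18 hours. CC-122 (avadomide) is a cereblon modulator, which directs a ubiquitin ligase to degrade the transcription factors Ikaros and Aiolos. All arrays came from this single line, at this single dose and time, and whether replicates were separate cultures is not stated in the labels. The p-values therefore reflect the spread among these samples alone, which may be technical. In a bulk measurement, fewer cells of a type and less RNA per cell cannot be told apart.

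IRFs act at several steps of the interferon response. IRF3 and IRF7 lie downstream of nucleic acid sensors, are phosphorylated by the kinases TBK1 and IKK-epsilon and switch on interferon genes. Interferon then acts through its receptors, JAK kinases and STATs, and IRF9 is the DNA-binding part of the complex ISGF3, which binds the interferon-stimulated response element (ISRE) of target genes. IRF1 is itself induced by interferon and activates many of the same targets, and IRF2 can oppose it. In B cells IRF8 acts with the Ets factors PU.1 and SPIB, and IRF5 serves Toll-like receptor signalling. IRF1, IRF7 and IRF9 were taken from textbook knowledge as interferon-inducible and IRF2 and IRF3 as constitutive, while IRF5 and IRF8 were put in neither class.

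The values below are normalized log2 intensities, and a difference is the mean of the CC-122 arrays minus that of the DMSO arrays on this scale. A probe counted as detected on an array when its detection p-value was below 0.05, and it was tested if detected on at least 5 of the 10 arrays. Between 18043 and 18844 probes were detected per array, and 17125 were tested. CC-122 replicate 3 was the brightest array before normalization, with a median intensity of 108.9 against 74.0 to 81.6 on the other 9. All 6 B-cell markers with a named probe were detected on all 10 arrays, and 0 of 5 plasmacytoid dendritic cell markers and 0 of 8 T and NK cell markers passed the detection filter. Of 7 monocyte markers only CD14 passed, at 4.99 ± 0.13 with DMSO and 5.16 ± 0.38 with CC-122 (SD, n = 5), and of 8 fibroblast and epithelial markers only EPCAM passed, detected on all 10 arrays at 8.96 ± 0.27 with DMSO and 8.82 ± 0.13 with CC-122 (SD, n = 5). The number of arrays limits the precision of all values.

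IRF7 and IRF9 rose after CC-122, IRF8 fell slightly, and IRF1, IRF2 and IRF3 did not pass the test. Of the 10 IRF probes, 8 were tested, and the other 2, the IRF5 probe and 1 of the IRF7 probes, were below the detection filter. Of the 8 tested probes, 4 were called at an adjusted p below 0.05: both tested IRF7 probes and that of IRF9 were higher, and that of IRF8 was lower. Over all 17125 tested probes, 10.1% were called, 5.77% higher and 4.34% lower. The same 4 probes were those whose groups did not overlap, which was so for 10.6% of all tested probes.

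**Figure D1:**
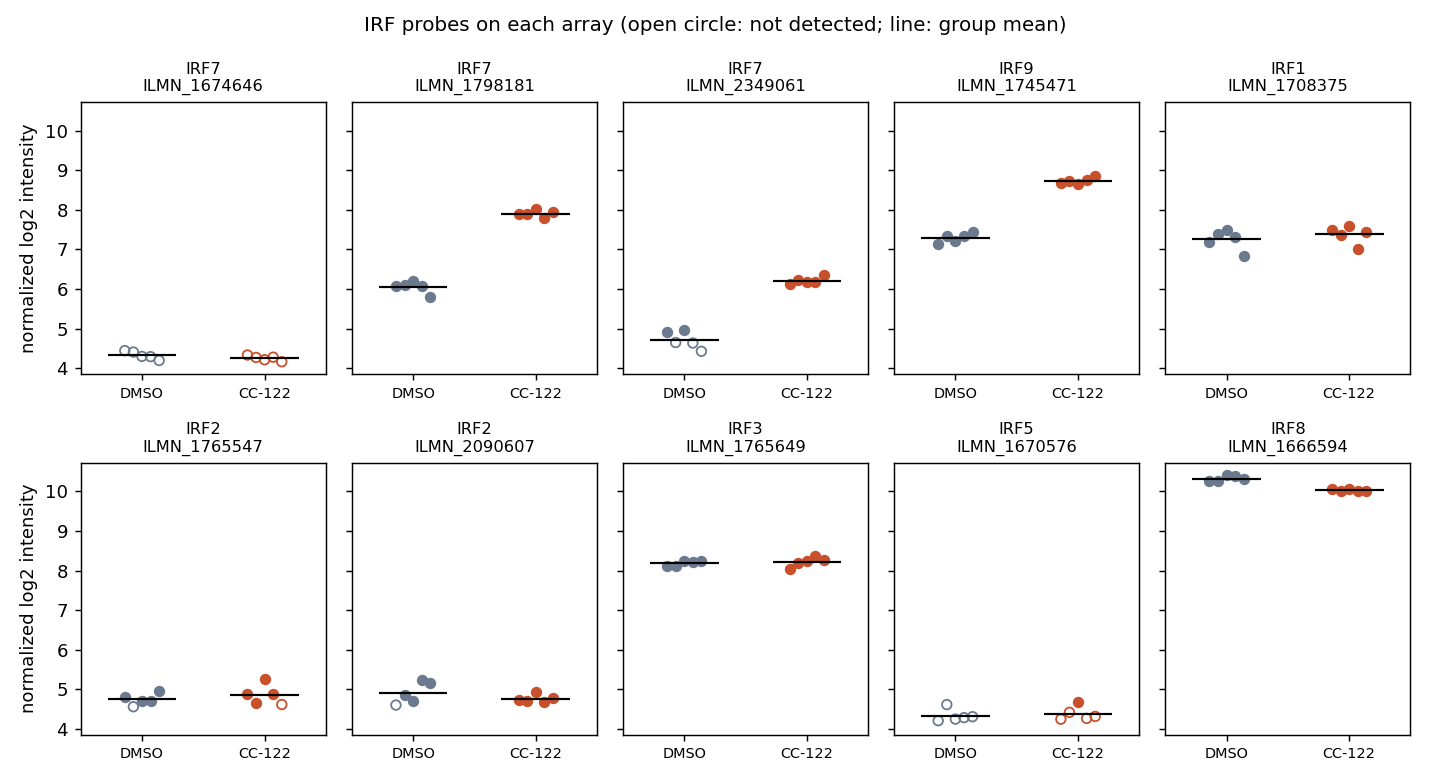
Normalized log2 intensity (y axis) of each of the 10 IRF probes on the 5 DMSO and 5 CC-122 arrays (x axis). Filled circles were detected, open circles were not, and lines are group means; the groups lie apart for 2 IRF7 probes, IRF9 and IRF8, and overlap for the rest.

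IRF7, the factor that amplifies type I interferon production, changed most within the family when genes were compared by their brightest probes. Its brightest probe (ILMN_1798181) read 6.09, 6.10, 6.19, 6.07 and 5.80 on DMSO replicates 1 to 5. On CC-122 replicates 1 to 5 it read 7.88, 7.89, 8.02, 7.80 and 7.95. The lowest treated array thus stood far above the highest vehicle array, and the widest gap within a group was that of DMSO replicate 5 below the other vehicle arrays. The difference was 1.86 ± 0.08 (SE, 95% interval 1.68 to 2.04, adjusted p = 5.94e-08 from limma), a 3.62-fold rise. By size of rise it ranked 12 among the 17125 tested probes.

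The other tested IRF7 probe (ILMN_2349061) gave the same direction at a dimmer level. It read 4.93, 4.65, 4.96, 4.64 and 4.43 on the DMSO arrays, of which only replicates 1 and 3 counted as detected. On the CC-122 arrays it read 6.14, 6.22, 6.19, 6.18 and 6.35, detected on all 5. It rose by 1.49 ± 0.10 (SE, adjusted p = 1.89e-06), or 2.82-fold, and ranked 32. With 2 detected DMSO arrays it passed the filter through the treated group, so its call adds little to that of the brighter probe. The size of the IRF7 rise depends on the background correction: with a fixed offset of 50 the differences were 1.34 for the brighter and 0.73 for the dimmer probe, and without background correction 1.23 and 0.63, all still called. IRF9 differed by 1.21 and 1.15 under these settings, above the dimmer IRF7 probe and below the brighter one.

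The third IRF7 probe (ILMN_1674646), which the platform table assigns to another RefSeq transcript of the gene than the other IRF7 probes, was not detected on any of the 10 arrays. Its readings ran from 4.20 to 4.45 with DMSO and from 4.17 to 4.34 with CC-122. The groups overlapped, and in a fit without the detection filter the difference was -0.08 (95% interval -0.21 to 0.06, adjusted p = 0.746 from limma). A dim probe bounds neither the transcript nor its change closely, and its position was not analysed here.

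IRF9, the DNA-binding subunit of ISGF3, rose on all treated arrays. It read 7.14, 7.33, 7.21, 7.33 and 7.43 on the DMSO arrays. On the CC-122 arrays it read 8.67, 8.72, 8.65, 8.75 and 8.85. Both groups were tight, with the treated arrays all more than 1 log2 unit above the highest vehicle array. The difference was 1.44 ± 0.07 (SE, 95% interval 1.28 to 1.60, adjusted p = 1.82e-07), a 2.71-fold rise that ranked 35 among all tested probes.

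IRF1, the third of the interferon-inducible members, did not pass the test. Its DMSO readings were 7.20, 7.40, 7.50, 7.32 and 6.85, and its CC-122 readings 7.50, 7.38, 7.60, 7.01 and 7.43. The groups overlapped almost fully, and each held a single low array, DMSO replicate 5 and CC-122 replicate 4. The difference was 0.13 (95% interval -0.16 to 0.42, adjusted p = 0.637 from limma), so a rise above 1.34-fold lay outside the interval. Leaving out single arrays moved it from 0.029, without DMSO replicate 5, to 0.22, without CC-122 replicate 4, and it was called in none of these 10 fits. IRF1 was also the most variable tested member: its within-group SD of 0.24 exceeded that of 78.1% of tested probes, against a median of 0.17 over all of them.

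No promoter window was available for IRF7, IRF2 or IRF3, so their promoters were not examined. The promoters of IRF9 and IRF1, the inducible members with a window, are shown, and each window holds a match to a STAT-type motif. Both windows run from 250 bases before to 50 bases after the RefSeq gene start (GRCh38.p14), 5′ to 3′ on the gene's strand, and the capitals mark the match to TTCNNNGAA, the gamma-activated site (GAS).
IRF9, chr14:24161015-24161314, plus strand: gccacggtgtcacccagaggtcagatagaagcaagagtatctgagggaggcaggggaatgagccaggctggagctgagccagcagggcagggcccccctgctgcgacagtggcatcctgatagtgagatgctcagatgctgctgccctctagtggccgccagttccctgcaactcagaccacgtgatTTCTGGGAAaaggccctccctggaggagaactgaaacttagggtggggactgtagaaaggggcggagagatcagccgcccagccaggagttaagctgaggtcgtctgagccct
IRF1, chr5:132490724-132491023, minus strand: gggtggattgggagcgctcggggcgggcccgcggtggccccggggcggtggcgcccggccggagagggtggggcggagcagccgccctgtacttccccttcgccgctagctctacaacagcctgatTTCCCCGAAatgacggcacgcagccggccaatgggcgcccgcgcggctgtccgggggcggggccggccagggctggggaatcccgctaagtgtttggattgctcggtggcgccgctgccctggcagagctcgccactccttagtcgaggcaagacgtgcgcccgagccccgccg
The IRF9 window held 1 match, TTCTGGGAA, at bases -63 to -55 from the start (base 0), and the IRF1 window held 1, TTCCCCGAA, at bases -124 to -116. The motif is its own reverse complement, so both strands were searched at once, and 7.66% of the 35116 RefSeq promoter windows of this length held it. Neither window held the ISRE core, searched on both strands as GAAA, any 2 bases and GAAA again, which 3.57% of all windows held. The windows given for IRF5 (4 starts) and IRF8 (2 starts) held neither motif. These matches describe the letters of the windows only, and no binding was measured.

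IRF3 and IRF2, the constitutive members, showed no call. IRF3, the factor that starts the interferon-beta response, read 8.13, 8.12, 8.25, 8.23 and 8.25 on the DMSO arrays and 8.04, 8.18, 8.25, 8.36 and 8.27 on the CC-122 arrays. The groups overlapped throughout, and the difference was 0.03 (95% interval -0.14 to 0.19, adjusted p = 0.885 from limma). The interval leaves room for a rise of at most 1.14-fold at its upper end. Without CC-122 replicate 4 the difference was -0.0090.

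IRF2, the antagonist of IRF1 at shared sites, was close to the background on both of its probes, so its values carry less weight. The brighter probe (ILMN_2090607) read 4.61, 4.87, 4.72, 5.24 and 5.15 with DMSO and 4.73, 4.72, 4.93, 4.67 and 4.78 with CC-122, and the lowest detected signal lay between 4.63 and 4.67 on the 10 arrays. It differed by -0.15 (95% interval -0.41 to 0.11, adjusted p = 0.516 from limma). The other probe (ILMN_1765547) differed by 0.11 (95% interval -0.15 to 0.37, adjusted p = 0.641), so the probes disagreed in sign and neither was called.

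IRF8, a factor of germinal centre B cells, was the only member that fell. It read 10.27, 10.26, 10.42, 10.38 and 10.31 on the DMSO arrays. On the CC-122 arrays it read 10.05, 10.00, 10.07, 10.00 and 10.02. The groups were apart by a narrow margin, and the treated arrays lay within 0.07 of each other. The difference was -0.30 ± 0.06 (SE, 95% interval -0.43 to -0.16, adjusted p = 0.00776), to 0.81 of the vehicle level. By size of fall it ranked only 1150 among the 17125 tested probes. Among the B-cell markers, CD22, CD37 and MS4A1 were lower and CD79B and BLK higher, and their mean level ran from 9.29 to 9.45 with DMSO and from 9.11 to 9.31 with CC-122, whose part in the IRF8 result was not tested. The call rests on a small spread, as the within-group SD of 0.05 exceeded that of only 1.41% of tested probes. The call was lost (-0.22, adjusted p = 0.813) when arrays were scaled to their median in place of quantile normalization, a scaling that shifted the median of all tested probes by 0.08 and called 671 of them, 84.4% higher, against 1732 and 57.0% higher in the reported fit.

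IRF5, which carries signals from Toll-like receptors, was not measurable with its probe. It was detected on 0 of the DMSO arrays and on 1 of the CC-122 arrays, replicate 3, where it read 4.67. The other readings lay between 4.21 and 4.62, and without the filter the difference was 0.05 (95% interval -0.17 to 0.27, adjusted p = 0.906 from limma). IRF4, the family member left out here, differed by -0.54 ± 0.10 (SE, adjusted p = 0.00321), and its call too was lost under scaling to the array median (-0.45, adjusted p = 0.153).

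**Figure D2:**
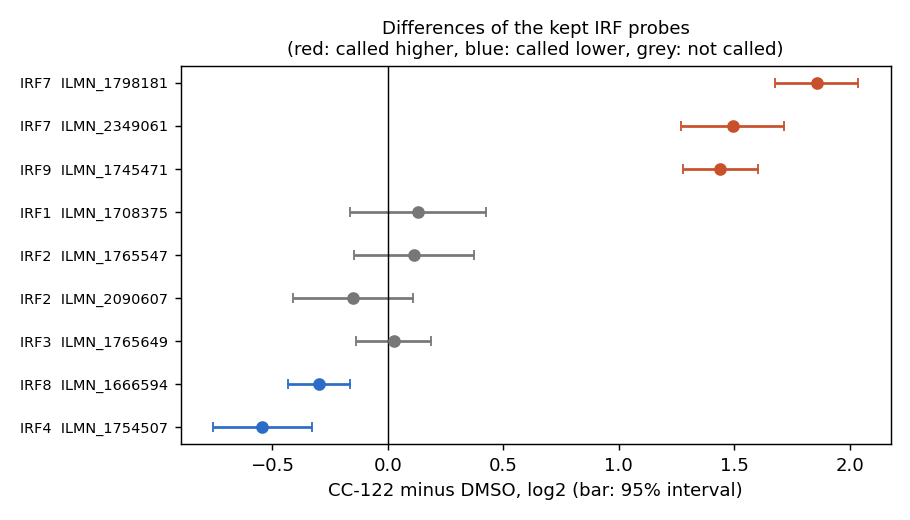
Difference between CC-122 and DMSO on the log2 scale (x axis) for the 8 tested IRF probes and IRF4 (y axis), with 95% intervals from the fit. IRF7 and IRF9 lie between 1.44 and 1.86, IRF8 at -0.30, and the intervals of IRF1, IRF2 and IRF3 include 0.

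The contrast of inducible with constitutive IRFs was made within each array, as the log2 ratio of an inducible to a constitutive member by their brightest probes. Such a ratio shows unequal change, not that either gene stayed the same. IRF7 rose against IRF3 by 1.83, a 3.55-fold change of the ratio, with ratios from -2.46 to -2.02 on DMSO arrays and from -0.57 to -0.16 on CC-122 arrays. IRF9 rose against IRF3 by 1.41 (2.66-fold), with ratios from -1.04 to -0.79 and from 0.39 to 0.63. In both cases the treated arrays were all above the vehicle arrays. The sizes depend on the background correction: without it the changes against IRF3 were 1.21 for IRF7 and 1.13 for IRF9. Against IRF2, whose probe was dim, the changes were 2.01 for IRF7 and 1.59 for IRF9, again with separate groups. For each of these 4 pairs the two-sided exact permutation test gave p = 0.00794, the smallest that 5 against 5 arrays allow, and 0.0119 after Benjamini-Hochberg adjustment over the 6 pairs compared. This test took the arrays as unpaired. With same-numbered arrays as pairs, the exact test gave an adjusted p of 0.0938 for each, the smallest it could reach.

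IRF1 did not follow the other inducible members. Its ratio to IRF3 changed by 0.10 (exact permutation p = 0.532, adjusted p = 0.532) and its ratio to IRF2 by 0.28 (exact permutation p = 0.238, adjusted p = 0.286), with overlapping groups. Without DMSO replicate 5 the change against IRF3 was -0.013. A direct comparison inside the class, added after these values were seen, put IRF7 above IRF1 by 1.73 and IRF9 above IRF1 by 1.31 in change (exact permutation p = 0.00794 for both, also after adjustment over these 2 pairs). As these 2 pairs were picked from differences already seen, their p-values add no support. By the calls, the inducible class was split in these arrays, with IRF7 and IRF9 higher and IRF1, on its 1 probe, not called.

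**Figure D3:**
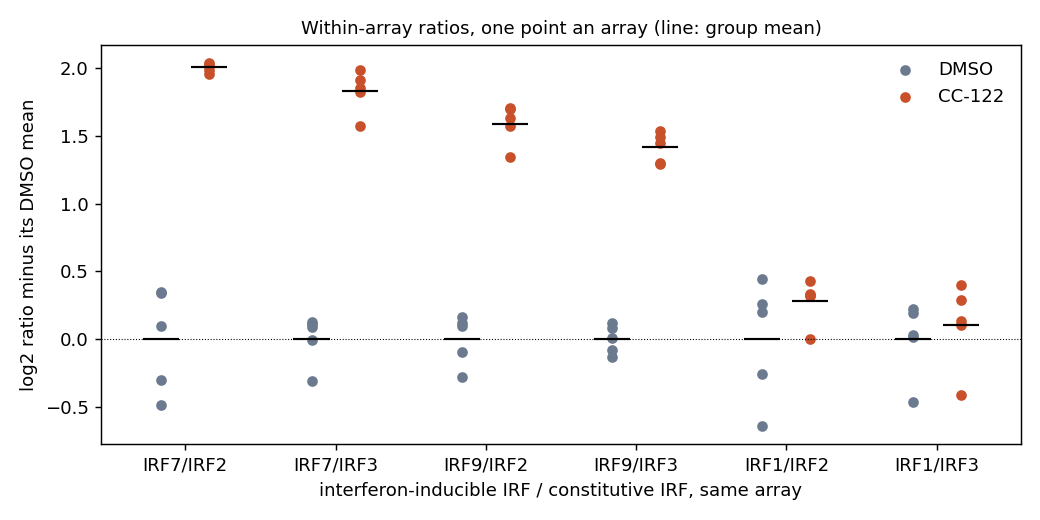
Log2 ratio of an inducible to a constitutive IRF on each array, minus the mean of that ratio over the DMSO arrays (y axis), for the 6 pairs (x axis). Points are arrays and lines are group means; the ratios of IRF7 and IRF9 lie apart between groups, and those of IRF1 overlap.

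The genes whose profiles over the 10 arrays lay closest to each called member were taken by the smallest root mean square difference of log2 values, each probe centred on its own mean, among 9035 genes. For IRF7 they were CTDSPL, a phosphatase (root mean square difference 0.105, rise 1.97), IFITM1, an inhibitor of virus entry (0.105, rise 1.88), and LGALS1, the lectin galectin-1 (0.114, rise 1.87). For IRF9 they were ID3, an inhibitor of E-proteins (0.131, rise 1.51), VCL, the adhesion protein vinculin (0.141, rise 1.30), and LTB, lymphotoxin beta (0.144, rise 1.49). For IRF8 they were GRK2, a receptor kinase (0.055, difference -0.21, not called at adjusted p = 0.0593 from limma), CDC45, a replication factor (0.060, difference -0.26, not called in 5 of the 10 fits without 1 array), and IGIP (0.060, difference -0.35). The likeness reflects mainly the difference between the groups, which all 10 arrays share, and the neighbours of IRF8 moved little. CTDSPL differed by 1.24 with a fixed offset of 50.

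Genes around the IRFs are given by role, with the brightest tested probe for each gene. The lists were written from textbook knowledge, but they were chosen with earlier results of these data known. Their counts are therefore descriptive. Over the 9041 genes tested, 7.13% were higher and 5.38% lower, with a median difference of -0.01. Interferon genes, the ligands, were not measurable: of 20 with a named probe 0 passed the detection filter, and 13 were detected on no array. IFNB1, the first interferon gene downstream of IRF3, was detected on 0 DMSO arrays and 1 CC-122 array.

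Interferon receptor chains, JAKs and their regulators moved little. Of 10 tested, 1 was higher and 2 were lower, with a median of 0.07. None of these calls was left (0 higher and 0 lower) when arrays were scaled to their median. IFNLR1, which makes up the lambda interferon receptor with IL10RB, rose by 0.42 (adjusted p = 0.00177 from limma). JAK1, the receptor-bound kinase, fell by 0.36 (adjusted p = 0.00449), and SOCS1, the feedback inhibitor of JAK kinases, fell by 0.34 (adjusted p = 0.0484), a call that did not hold in 8 of the 10 fits without 1 array.

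The sensors, adaptors and kinases upstream of IRF3, IRF5 and IRF7 gave 16 tested genes with a median of 0.01, of which 3 rose and 2 fell. TLR7, an endosomal receptor for single-stranded RNA, was below detection on every DMSO array and, by its bound, at least 1.49-fold higher with CC-122. It passed the filter through the treated arrays alone and so had to differ to be tested. TICAM1, the adaptor TRIF, rose by 0.78 ± 0.12 (SE, adjusted p = 9.66e-04), and IFIH1, the RNA sensor MDA5, rose by 0.39 ± 0.10 (adjusted p = 0.0263). TLR9, a receptor for DNA, fell by 0.34 ± 0.08 (adjusted p = 0.0201). The other call was AZI2, an adaptor of TBK1, which fell by 0.27 and is named beyond the rule for named genes, as are the kinases themselves: TBK1 differed by -0.20 (adjusted p = 0.101) and IKBKE by -0.13 (adjusted p = 0.382). Without single arrays, IFIH1 was not called in 7 of 10 fits and TLR9 in 1. Scaling to the array median left 2 of the list higher and 0 lower, and the replicate number as a block left 0 lower.

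Partners of IRFs on DNA moved either way. Of 5 measured above the filter, 2 were higher and 1 lower, with a median of -0.05, and with arrays scaled to their median 1 was higher and 1 lower. SPIB, an Ets factor that binds composite sites with IRF4 and IRF8, fell by 1.54 ± 0.11 (SE, adjusted p = 1.89e-06). BATF, which forms AP-1 dimers that bind with IRF4 and IRF8, rose by 0.91 ± 0.11 (adjusted p = 2.20e-04), and ETV6, an Ets repressor, rose by 0.38 ± 0.07 (adjusted p = 0.00498). SPI1, which encodes PU.1, differed by -0.23 (adjusted p = 0.148) and is likewise named beyond the rule. Of 8 tested protein modulators of IRFs, 0 were higher and 1 was lower, FBXW7, which picks substrates for a ubiquitin ligase and fell by 0.30 (adjusted p = 0.0189), a call lost in 1 of the 10 fits without 1 array and under scaling to the array median, where 0 of the list were lower.

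Genes listed as targets of the ISRE, the element that ISGF3 binds, were higher in most cases, and what drove them here was not tested. Of 23 with a named probe, 20 were tested, of which 17 rose and 0 fell. Their median was 0.98, also with undetected genes at their bound. The 3 below the filter showed no clear rise: OASL was detected on 0 DMSO arrays and 1 CC-122 array, RSAD2 on 1 and 0, and DDX60 on 2 and 0. Under the 17 alternatives run on this list, 12 to 17 rose and 0 fell, with 12 under scaling to the array median. MX1, an antiviral GTPase, was at least 15.9-fold higher and was not detected on any DMSO array. ISG15, a ubiquitin-like modifier, rose 5.72-fold and IFITM1 3.68-fold. IFIT1, a binder of foreign RNA ends, was called higher, but it was detected on 1 DMSO array only, so the size of its rise is not given as a fold. These sizes depend on the background correction, as with a fixed offset of 50 MX1 differed by 2.73, ISG15 by 1.85, IFITM1 by 1.42 and IFIT1 by 0.92. Of the 17, 6 were detected on at most 1 DMSO array and owed the filter to the treated arrays: MX1, IFIT2 and IFI27 on no DMSO array, and IFIT1, OAS2 and IFI44 on 1. The other 11 were detected on more DMSO arrays. IFIT2, IFI27, OAS2, IFI44, OASL, RSAD2 and DDX60 are named beyond the rule.

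Genes listed as targets of IRF1 in the interferon-gamma response formed the other target list. Of 9 tested, 4 rose and 0 fell, with a median of 0.35, or 0.28 with CXCL9 at its bound. CXCL10, a chemokine, rose by 2.88 ± 0.08 (SE, adjusted p = 6.97e-10), and CXCL9, undetected on DMSO arrays and so tested only through the treated ones, was at least 1.21-fold higher. TAP1, a peptide transporter, rose by 0.46 and PSMB9, an immunoproteasome subunit, by 0.35, and PSMB9 was not called in 8 of the 10 fits without 1 array. With a fixed offset of 50 CXCL10 differed by 1.83, still called. GBP1, GBP2, GBP4 and GBP5, interferon-gamma-induced GTPases, were below the filter, and GBP1 alone was detected on 1 array. The difference between both target lists was not tested. The ISRE core was in 23 of 30 promoter windows of the ISRE list and 8 of 13 of the IRF1 list, against 3.57% of all windows. The GAS motif was in 9 of 30 and 4 of 13, against 7.66%. These windows belong to listed genes whether tested or not, and a gene can have several. As the lists hold known targets, the shares describe the lists and not these arrays.

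**Figure D4:**
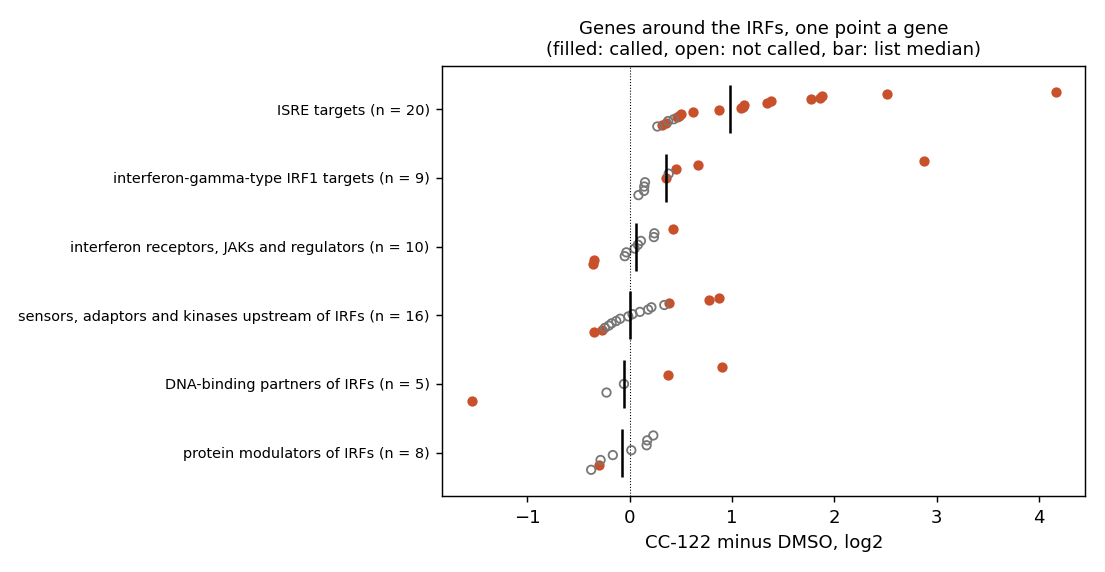
Difference between CC-122 and DMSO on the log2 scale (x axis) for the tested genes of 6 lists (y axis), 1 point a gene. Filled points were called, open points were not, and bars are list medians, which run from -0.07 for the modulators to 0.98 for the ISRE targets.

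**Figure D5:**
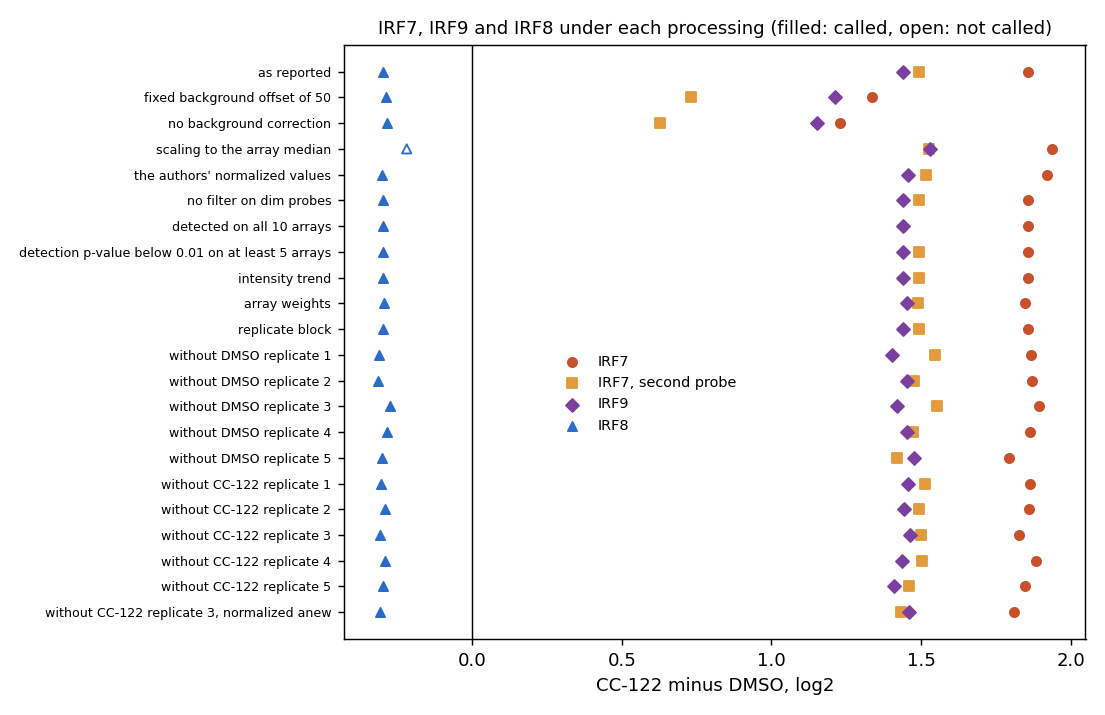
Difference between CC-122 and DMSO on the log2 scale (x axis) for IRF7 (both tested probes), IRF9 and IRF8 under each processing (y axis), filled where called. IRF9 stays between 1.15 and 1.53, and IRF8 loses its call under 1 scaling.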

How the data were processed

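Transcript levels were read on Illumina BeadChips, 5 for each treatment. The authors deposited, for each probe on each array, an intensity on a linear scale without normalization and a detection p-value. They also deposited normalized log2 values for 34468 probes by an unstated method. Each of these 10 columns matched its own array best (correlation at least 0.99993, medians 4.54). They served as an alternative.

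Intensities were corrected and quantile-normalized with neqc (offset 16) of limma 3.58.1 in R 4.3.3. 1 probe with a missing value was left out. Probes were named through the platform table: 26359 had 1 gene, 3 had several and 21745 were not listed. Symbols were updated through gene identifiers to GRCh38.p14. limma (lmFit and eBayes, two-sided) was run on all 17125 kept probes with Benjamini-Hochberg adjustment over all of them. Calls in gene lists use the same adjusted p. For a fold written "at least", each dim array was set to its lowest detected signal, or to the probe's own reading where that was higher, and the bound holds for this background correction. The calculation was tested on simulated data. Replicate numbers are shared between groups, and same-numbered arrays had neighbouring columns and consecutive identifiers. Whether they were handled as pairs is not stated in the labels. Deviations of same-numbered arrays correlated at -0.0045 to 0.14, so they were not taken as pairs in the reported tests, and a replicate block was run as an alternative.

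Named genes were the 7 members, IRF4, up to 4 called genes of each list with the largest difference and the 3 nearest profiles of each called member. Members and lists were chosen with earlier results of these data known. Alternatives covered background, scaling, filter, variance model, pairing and single arrays. Array slides were not used here.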

Additional observations from a re-analysis of the deposited data

Results flagged for a closer look

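In 5 of 88 groups of 5 arrays, a single array stood apart from the other 4 by more than Dixon's critical value for the ratio of its gap to the group's range, and chance flags about 1 group in 20. IRF5 read 4.62 on DMSO replicate 2 against 4.21 to 4.31 on the other DMSO arrays, all undetected. The log2 ratio of IRF1 to IRF2 was 2.34 on CC-122 replicate 4 against 2.65 to 2.77 on the other treated arrays. TLR7 read 4.53 on DMSO replicate 2 against 4.29 to 4.33, also undetected. BATF read 6.22 on DMSO replicate 5 against 6.72 to 6.87, and TAP1 read 8.52 on DMSO replicate 3 against 8.40 to 8.43.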

How the results depend on the processing

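The number of IRF probes called was 3 or 4 under all 21 alternatives, and 4 whichever array was left out. The brighter IRF7 probe stayed between 1.23 and 1.94, the dimmer tested one between 0.63 and 1.55, and IRF9 between 1.15 and 1.53. Each was called under every alternative in which it was tested. Scaling to the array median called 671 probes in place of 1732 and left IRF8 at -0.22, not called, and the cause was not tested. Leaving out single arrays gave 1381 to 1590 called probes, -0.0090 to 0.072 for IRF3 and -0.013 to 0.23 for IRF1 against IRF3, and neither of the last results was called in any setting. With the replicate block (exact test within pairs, smallest adjusted p 0.0938) the changes of ratio were 2.01 (IRF7 against IRF2), 1.83 (IRF7 against IRF3), 1.59 (IRF9 against IRF2) and 1.41 (IRF9 against IRF3), a test too small to pass. With the replicate block in limma 1501 probes and the same number of IRF probes, 4, were called, with IRF8 at adjusted p = 0.0306. Among the 5 arrays of the other group, 6 of 10 arrays correlated best with that of their own number. A slide block was not run. Dropping CC-122 replicate 3, the brightest array, and normalizing the other 9 anew (added after seeing the data) gave 1.81 for IRF7, 1.46 for IRF9 and -0.31 for IRF8. For the gene lists, where scaling to the array median and the authors' values were added after seeing the data, other settings gave 0 ISRE or IRF1 targets lower, though counts changed, with ISRE targets at 12 to 17 higher. Dim probes (IRF2, IRF5 and the third of IRF7) are limited by signal over background.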

Other observations

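Some genes around the IRFs lay just outside the threshold, picked after their values were seen. IRF2BP2, a corepressor that binds IRF2, differed by -0.38 (adjusted p = 0.0505 from limma), and MYD88, the Toll-like receptor adaptor upstream of IRF5 and IRF7, by 0.34 (adjusted p = 0.0567). IL10RB, the partner of IFNLR1, differed by 0.24 (adjusted p = 0.0751). RIGI, the RNA sensor RIG-I, was detected on 1 of 10 arrays, and MAVS, the adaptor of RIG-I and MDA5, on 0.

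DMSO replicate 5 held the lowest vehicle value of IRF1 (6.85) and of both tested IRF7 probes (5.80 and 4.43), but the highest vehicle value of IRF9 (7.43).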
